A study of Mus musculus with 7 samples.

Results

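The RNA sensing genes Rigi, Ifih1, Dhx58, Mavs, Eif2ak2 and Adar were read in tumor and host cells of irradiated and control allografts of a malignant peripheral nerve sheath tumor (MPNST), a sarcoma of the nerve sheath. These 6 genes were found by symbol among the 33696 genes counted, each by 1 identifier. JW23.3 mouse MPNST cells, mutant for Nf1 and Trp53, were implanted subcutaneously into female C57/B6 mice aged 5 to 6 weeks. Mice were randomized on day 7. The irradiated group (4 tumors) received 5 daily fractions of 2 Gy, the control group (3 tumors) received none, and every tumor was taken on day 21, so all groups shared the line, its mutations and an immune-competent host. All tumors came from 1 cell line and every library was 1 tumor, dissociated with papain and profiled by 3' droplet RNA-seq, so the tumor was the replicate.

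RIG-I (encoded by Rigi) and MDA5 (Ifih1) are cytosolic helicases that bind double-stranded RNA, and LGP2 (Dhx58) is a related helicase that tunes their signal. Both sensors pass their signal to the mitochondrial adaptor MAVS, which leads to the production of type I interferon. PKR (Eif2ak2) binds the same kind of RNA and halts translation through eIF2 alpha, whereas ADAR1 (Adar) edits adenosines in the cell's own double-stranded RNA and so keeps it from being sensed. Interferon in turn induces transcription of most genes of this group, and promoters of interferon-induced genes often hold GAAA repeats. Radiation can release self RNA and DNA into the cytosol, and the study asked which mechanisms underlie the response of MPNST to radiation.

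The GAAA repeats could be read in the promoter sequence of 4 of the 5 members for which RefSeq promoters were at hand (build GRCm38.p6, 250 bases before to 50 bases after a start site). These 30-base stretches are shown because they hold the repeats found in 4 members and not in Mavs, and the capitals mark the match to GAAANNGAAA or GAAANGAAA, searched on both strands. The printed matches did not overlap each other. Sequences run 5′ to 3′ along the gene.
Rigi, chr4:40239867-40239896, minus strand, match 60 bases before the start: gtctaggttcaGAAACGAAActggatcccc
Rigi, chr4:40239804-40239833, minus strand, match 2 bases after the start and read on the opposite strand: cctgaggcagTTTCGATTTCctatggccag
Ifih1, chr2:62646206-62646235, minus strand, match 32 bases after the start: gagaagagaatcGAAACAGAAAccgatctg
Eif2ak2, chr17:78882535-78882564, minus strand, match 18 bases after the start: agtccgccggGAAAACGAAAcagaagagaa
Adar, chr3:89730735-89730764, plus strand, match 28 bases after the start: gccttttcaagGAAACGAAAgtgaactctg
Adar had 3 start sites in the RefSeq promoters, of which 1 held a match. The Mavs promoter held neither motif in this window, and Dhx58 is named only. GAAANNGAAA occurred in 3.44% and GAAANGAAA in 3.17% of all 32851 promoters of this length, and either of them in 6.27%. Of the 26 interferon-induced reference genes used further on (Isg15, Ifit1, Mx1, Oas2 and others), 18 had a promoter of that length and 12 of these held a match.

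Sequencing gave 646559899 unique molecular identifiers (UMIs) in 39537 cells over the 7 libraries. A library held 2859 to 8452 cells, with a median of 6058.5 to 17930.5 UMIs per cell before any cell was removed. After cells beyond 3 median absolute deviations were removed, 34301 remained, and marker genes assigned 30637 of them to a class. The gates gave 16243 MPNST-like, 11932 macrophage-like, 1339 T/NK-like, 484 endothelial-like, 221 dendritic-like, 170 pericyte-like, 110 fibroblast-like and 70 keratinocyte-like cells. MPNST-like cells also had to lack UMIs of Xist, which the female host expresses. Summed markers were highest in their own class, an order largely fixed by gating on the same lists. The 15 macrophage markers summed to 24000 to 29300 UMIs per 1000000 (CPM) in macrophage-like cells and 50.7 to 111 CPM in MPNST-like cells. The 15 MPNST markers summed to 6580 to 7700 CPM in MPNST-like cells and 43.8 to 167 CPM in macrophage-like cells. The Schwann lineage markers Sox10 and Ngfr were nearly absent from MPNST-like cells (13 and 16 UMIs in all 7 tumors), whereas the other 13 markers of the list, such as Col11a1 and Twist1, were measured in every tumor. Library pairs shared 3 to 19 cell barcodes. The libraries were split into 2 sets by cell number, depth, genes per cell and mitochondrial share. Of 63 splits compared, the one with the least spread within its sets was taken. It left a share of 0.489 of the spread within the sets, against 0.544 for the next split. These sets crossed the groups. Set 1 held irradiated 1, control 2 and control 3, and set 2 held irradiated 2, 3 and 4 and control 1. Set 1 libraries held 6576 to 7451 retained cells and set 2 libraries 2342 to 5124. The sets overlapped in median genes per cell, with 3141 in irradiated 4 of set 2 and 3203.5 in irradiated 1 of set 1. They also overlapped in median mitochondrial share, with 4.46% in control 1 of set 2 and 3.60% in control 3 of set 1. The labels name no batch, so what separates the sets is not given in the sources used here.

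All 6 genes were detected in every tumor in MPNST-like, macrophage-like, T/NK-like and endothelial-like cells, and the classes differed most in the helicases. Levels are CPM, that is, UMIs of a gene per 1000000 UMIs of all genes in 1 class of 1 tumor. Among the 6 classes measured in at least 3 tumors, Rigi averaged 94.7 ± 27.9 CPM (SD, n = 7 tumors) in endothelial-like and 90.6 ± 16.4 CPM (n = 7) in T/NK-like cells, 58.7 ± 20.2 CPM (n = 7) in MPNST-like, 49.5 ± 18.4 CPM (n = 7) in macrophage-like, 44.4 ± 11.3 CPM (n = 4) in pericyte-like and 18.1 ± 9.72 CPM (n = 6) in dendritic-like cells. Neighbors in this order overlapped in their ranges in each case, including dendritic-like cells (4.44 to 33.72 CPM) against pericyte-like cells (27.71 to 52.23 CPM). The low dendritic-like value came from 38 UMIs in 206 cells and depended on the gate. With cell clusters in place of gates, the dendritic-like cluster (382 cells, tumors pooled) held 43.8 CPM of Rigi from 164 UMIs.

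Ifih1 ran in another order. It averaged 126 ± 104 CPM (SD, n = 7) in endothelial-like, 103 ± 32.8 CPM (n = 7) in macrophage-like, 99.2 ± 59.6 CPM (n = 6) in dendritic-like, 61.4 ± 12.3 CPM (n = 7) in T/NK-like, 48.8 ± 14.7 CPM (n = 4) in pericyte-like and 43.8 ± 25.9 CPM (n = 7) in MPNST-like cells. The endothelial-like mean rested in part on irradiated 2, where 20 cells gave 339.25 CPM against 51.65 to 176.79 CPM in the other tumors. Fibroblast-like cells, measured in only 2 tumors (66 cells, 65.0 CPM), are not in this order. With cell clusters in place of gates and tumors pooled, the fibroblast-like cluster (480 cells) held 200 CPM of Ifih1 and the endothelial-like cluster 102 CPM. Dhx58 averaged 31.5 ± 18.5 CPM (n = 6) in dendritic-like, 29.8 ± 11.2 CPM (n = 7) in macrophage-like, 25.6 ± 8.12 CPM (n = 7) in T/NK-like, 18.0 ± 12.8 CPM (n = 7) in endothelial-like, 6.05 ± 6.02 CPM (n = 4) in pericyte-like and 5.92 ± 3.05 CPM (n = 7) in MPNST-like cells. For Dhx58 the highest MPNST-like tumor (10.55 CPM) lay below the lowest macrophage-like tumor (18.43 CPM) and the lowest T/NK-like tumor (20.42 CPM).

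The adaptor gene Mavs had a narrow range in tumor cells and macrophages. Mavs lay between 6.40 and 9.76 CPM in MPNST-like cells and between 8.93 and 10.54 CPM in macrophage-like cells of the 7 tumors. In T/NK-like cells it lay between 1.64 and 8.98 CPM, from 34 UMIs in all 7 tumors together. Eif2ak2 averaged 49.5 ± 14.3 CPM (SD, n = 7) in MPNST-like, 49.1 ± 10.4 CPM (n = 7) in macrophage-like, 49.5 ± 7.23 CPM (n = 7) in T/NK-like and 66.5 ± 24.1 CPM (n = 7) in endothelial-like cells. Adar averaged 34.4 ± 10.7 CPM (n = 7), 28.1 ± 6.64 CPM (n = 7), 29.1 ± 6.17 CPM (n = 7) and 32.1 ± 11.1 CPM (n = 7) in the same 4 classes. Their ranges overlapped between all 4.

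**Figure D1:**
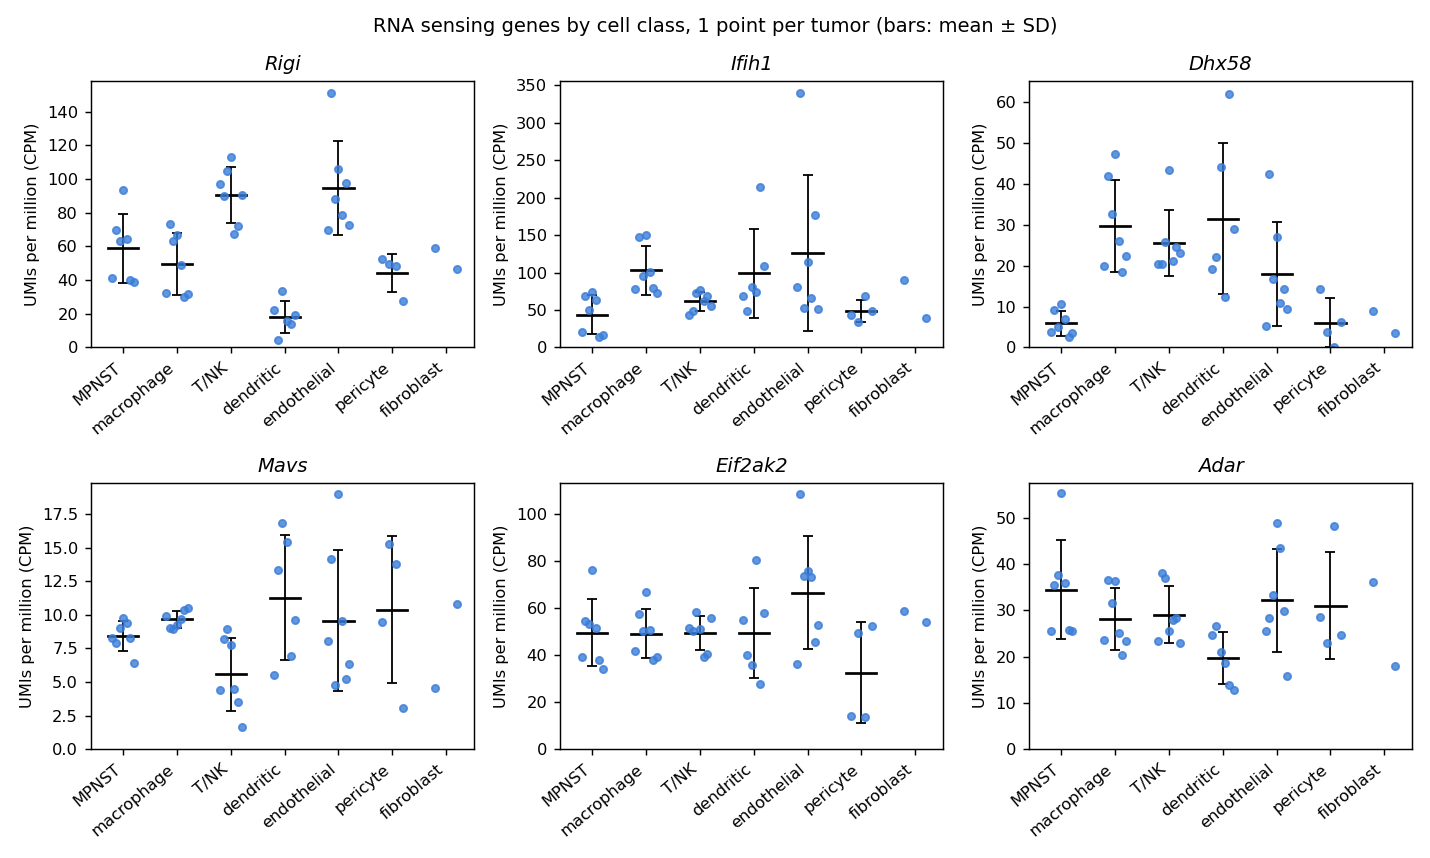
Level of each RNA sensing gene in CPM (vertical axis, UMIs per 1000000 UMIs of the class) by cell class (horizontal axis), with 1 point per tumor with at least 20 cells of the class, and the mean ± SD where at least 3 tumors were measured. Dhx58 in MPNST-like cells (5.92 CPM on average) lies below all macrophage-like and T/NK-like tumors, whereas Eif2ak2 averages 49.1 to 49.5 CPM in these 3 classes.

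Free RNA from lysed cells reaches all droplets, so genes of other classes give its scale. Ptprc, the pan-leukocyte CD45, stood in MPNST-like cells at 0.205% of its macrophage-like level and Laptm5, a lysosomal gene of blood cells, at 0.247%. Col1a1, the collagen made by the tumor cells, stood in macrophage-like cells at 1.3% of its MPNST-like level. All 6 RNA sensing genes in MPNST-like cells were far above these shares of their macrophage-like levels.

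Between classes of the same tumors, macrophage-like cells held more Ifih1 and Dhx58 than MPNST-like cells in 7 of 7 tumors. In the edgeR quasi-likelihood test on counts summed per tumor, with the tumor as a block and Benjamini-Hochberg adjustment over 16991 genes, Ifih1 was higher by 1.92 ± 0.20 on the log2 scale (SE, adjusted p = 4.96e-06) and Dhx58 by 2.88 ± 0.11 (adjusted p = 3.89e-10). With edgeR's TMM factors 6 of 6 genes were called higher in macrophage-like cells, and 4 of 6, all but Rigi and Adar, with RLE size factors, DESeq2, no filter on low counts or no tumor block, beside 39.6% of all genes called higher and 45.2% lower with TMM factors. Mavs was higher by 0.68 ± 0.10 (adjusted p = 4.3e-05) and Eif2ak2 by 0.48 ± 0.06 (adjusted p = 1.77e-05). Rigi differed by 0.21 ± 0.08 (adjusted p = 0.0303) and Adar by 0.20 ± 0.08 (adjusted p = 0.0337), but with library totals alone the calls reversed, with both genes called lower at -0.27 (edgeR, adjusted p = 0.0105) and -0.27 (adjusted p = 0.0126), and by CPM each was lower in macrophage-like cells in 6 of 7 tumors. Both calls were also lost without irradiated 2 (Rigi 0.15, Adar 0.15), irradiated 3 (0.17 and 0.20) or control 3 (0.16 and 0.12), that of Rigi without control 1 (0.21) and that of Adar without irradiated 1 (0.18).

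The scaling moved all genes together, with a median log2 difference over all genes of -0.13 with TMM factors and -0.60 with library totals. Relative to that median, Rigi stood at 0.33, Adar at 0.32, Eif2ak2 at 0.61, Mavs at 0.80, Ifih1 at 2.05 and Dhx58 at 3.00 on the log2 scale. The values with library totals were within 0.01 of these for each gene. That match follows from the subtraction, which removes a shift common to all genes, so it says nothing on how firm the calls are. Of all calls, 46.7% were higher in macrophage-like cells with TMM factors and 33.5% with library totals. With library totals Mavs (0.21) and Eif2ak2 (0.01) were no longer called.

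T/NK-like cells held more Rigi than either MPNST-like or macrophage-like cells in 7 of 7 tumors, and their Dhx58 was above that of MPNST-like cells. Against MPNST-like cells, Rigi was higher by 0.56 ± 0.13 on the log2 scale (edgeR, adjusted p = 0.000391) and Dhx58 by 2.09 ± 0.23 (adjusted p = 9.57e-10), both in 7 of 7 tumors, where 27.5% of all 16990 genes were called higher and 43.8% lower. Mavs was lower by 0.66 ± 0.28 (edgeR, log2 difference -0.66, adjusted p = 0.0383), a call lost without irradiated 1 (-0.60), control 1 (-0.58), control 2 (-0.58) or control 3 (-0.58) and in 5 other alternatives. Ifih1 differed by 0.57 ± 0.33 (adjusted p = 0.159) and Adar by -0.35 ± 0.16 (adjusted p = 0.0554), and neither passed the test. Ifih1 passed it without irradiated 2 (0.77) and with DESeq2 (0.71), and Adar without irradiated 2 (-0.39) or control 2 (-0.39). Eif2ak2 differed by -0.09 ± 0.14 (adjusted p = 0.591), a difference that was 0.01 with library totals.

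Against macrophage-like cells, T/NK-like cells held more Rigi in 7 of 7 tumors and less Ifih1 in 7 of 7. The log2 difference was 0.54 ± 0.14 for Rigi (edgeR, adjusted p = 0.00235) and -1.09 ± 0.13 for Ifih1 (adjusted p = 6.97e-08), where 30.2% of 14025 genes were called higher in T/NK-like cells and 38.2% lower. Dhx58 (-0.58), Mavs (-1.06), Eif2ak2 (-0.36) and Adar (-0.33) were called lower with TMM factors, and of these 4 Mavs alone was still called with library totals, where the differences were -0.21, -0.70, 0.00 and 0.03, the last pair with the sign turned. The calls of Eif2ak2 and Adar were also lost with RLE size factors, DESeq2 or no tumor block, and that of Dhx58 with no tumor block. The call of Eif2ak2 was lost without irradiated 4 (-0.28) or control 1 (-0.29), and that of Adar without irradiated 1 (-0.33), irradiated 2 (-0.33), irradiated 4 (-0.22) or control 3 (-0.32). The median of all genes was -0.11 with TMM factors and 0.25 with library totals, and the share of calls that were higher in T/NK-like cells went from 44.2% to 59.3%. Among T cells, Cd8-positive cells without Cd4 (282 cells, 6 tumors) gave 103 ± 23.1 CPM of Rigi (SD, n = 6) and Cd4-positive cells without Cd8 (357 cells, 7 tumors) gave 84.0 ± 30.3 CPM (n = 7).

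Endothelial-like cells held more Rigi, Ifih1 and Dhx58 than MPNST-like cells in 7 of 7 tumors. The log2 difference was 0.50 ± 0.14 for Rigi (edgeR, adjusted p = 0.0022) and 1.30 ± 0.29 for Dhx58 (adjusted p = 0.000179), where 22.5% of 16663 genes were called higher and 37% lower. Ifih1 differed by 1.32 ± 0.50 (adjusted p = 0.0581), which did not pass the test but passed it without irradiated 3 (1.56) or control 1 (1.62) and in 5 other alternatives. Mavs (-0.17), Eif2ak2 (0.17) and Adar (-0.30) did not pass it, and Mavs turned to 0.04 with library totals.

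**Figure D2:**
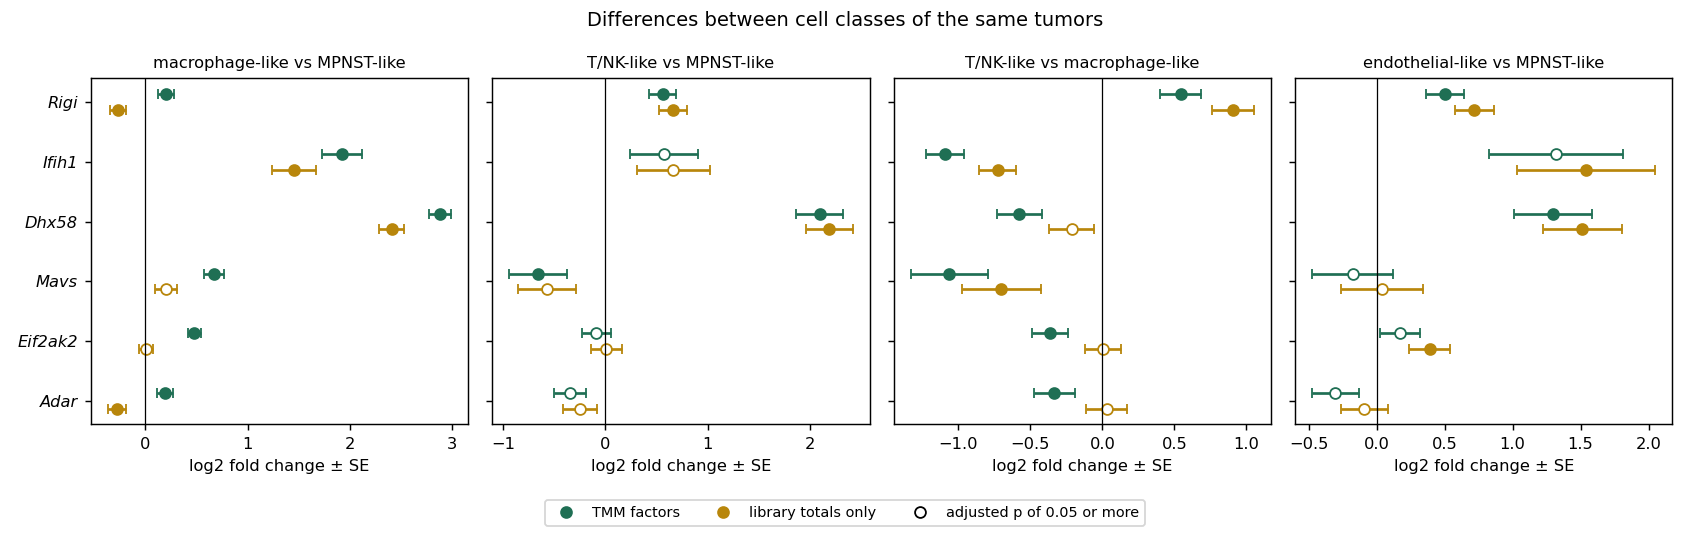
Log2 difference ± SE (horizontal axis) of each RNA sensing gene (vertical axis) between cell classes of the same 7 tumors, with edgeR's TMM factors (green) and with library totals only (ochre); filled points have an adjusted p under 0.05. Ifih1 and Dhx58 stay right of 0 in macrophage-like against MPNST-like cells under both scalings (1.92 and 1.45, 2.88 and 2.41), whereas Rigi and Adar change sides.

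Within macrophage-like cells, all members but Mavs were higher on the monocyte side than in cells with Mrc1 and C1q genes of the same tumor. The monocyte side is cells with the recruitment receptor Ccr2 and other monocyte genes. Only irradiated 2, irradiated 4 and control 1, all of library set 2, had enough monocyte-side cells (33, 137 and 41). Rigi stood at 146.82, 138.94 and 119.0 CPM in these cells and at 70.04, 59.54 and 46.8 CPM in the Mrc1 and C1q cells of the same tumors. Ifih1 stood at 264.99, 195.13 and 213.09 CPM against 147.07, 147.77 and 100.09 CPM. Eif2ak2, the PKR gene, stood at 111.01, 113.4 and 132.83 CPM against 55.39, 61.96 and 46.8 CPM. Dhx58 stood at 103.85, 88.88 and 33.21 CPM, where Mrc1 and C1q cells reached at most 42.18 CPM in irradiated and 25.54 CPM in control tumors. Adar stood at 60.88, 51.08 and 30.44 CPM, where those cells reached at most 35.75 and 24.97 CPM. These are values of 3 tumors with no test, and the monocyte side held 10 UMIs of Mavs in all. Ccr2 alone did not mark high levels in cell clusters of all tumors pooled. A macrophage-like cluster with Ccr2 among its top genes (1817 cells) held 28.8 CPM of Rigi and 63.1 CPM of Ifih1. Another, with Ly6c2 and the interferon-induced Rsad2 among its top genes (3301 cells), held 95.1 and 193 CPM.

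Whether irradiated tumors held more of these transcripts was tested in macrophage-like, MPNST-like and T/NK-like cells. In these 3 classes none of the genes tested passed, and for 0 of the 6 did the groups separate, where 2.47%, 1.23% and 3.34% of all genes in macrophage-like, MPNST-like and T/NK-like cells lay higher in irradiated tumors without overlap and 2.99%, 1.23% and 3.28% lower. In macrophage-like cells, 0 of 12717 genes were called with edgeR (0% of all genes; 734 at an unadjusted p under 0.05) and 11 with DESeq2, none of them among the 6. In MPNST-like cells, 0 of 17500 were called with edgeR (0%; 220 at an unadjusted p under 0.05) and 0 with DESeq2. In T/NK-like cells, 0 of 7493 were called with edgeR (0%; 425 at an unadjusted p under 0.05) and 1 with DESeq2. Where 200 genes were given a log2 difference of 1 in simulated counts, 73% were recovered in macrophage-like, 49.5% in MPNST-like and 54.5% in T/NK-like cells, so many genes with a difference of that size went uncalled at this number of tumors. The simulation used the dispersion trend over all genes and not each gene's own dispersion. These shares therefore do not hold for genes that vary more between tumors than the trend. In dendritic-like cells, which were not tested, Adar lay between 21.07 and 26.67 CPM in 3 irradiated tumors and between 12.85 and 18.52 CPM in 3 control tumors, from 37 UMIs in all, and the other 5 genes overlapped. The share of all genes that separated in this class was not computed, so the Adar values are not read as a difference between groups.

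In macrophage-like cells, Rigi stood at 32.37, 73.30, 63.26 and 66.82 CPM in irradiated 1 to 4 and at 48.94, 30.03 and 31.95 CPM in control 1 to 3. Irradiated 2, 3 and 4 lay above every control, and irradiated 1 lay between the control values. The log2 fold change was 0.65 ± 0.29 (edgeR, adjusted p = 0.818), and an exact two-sided permutation test over the 35 splits of the tumors gave p = 0.143, where the smallest p possible is 0.0286. Ifih1 stood at 78.51, 147.66, 95.18 and 150.27 CPM in irradiated 1 to 4 and at 100.35, 78.91 and 72.02 CPM in control 1 to 3. Only irradiated 2 and 4 exceeded all controls, and the log2 fold change was 0.47 ± 0.25 (edgeR, adjusted p = 0.818).

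Dhx58, the regulator of both sensors, followed the same tumors, with 20.06, 41.98, 32.58 and 47.34 CPM in irradiated 1 to 4 and 26.11, 18.43 and 22.29 CPM in control 1 to 3. Its log2 fold change was 0.65 ± 0.27 (edgeR, adjusted p = 0.818). Adar stood at 23.67, 36.57, 31.51 and 36.39 CPM in irradiated and at 25.13, 20.24 and 23.37 CPM in control tumors. Its log2 fold change was 0.46 ± 0.15 (edgeR, adjusted p = 0.818), and the exact permutation test gave p = 0.0857. Eif2ak2 had a log2 fold change of 0.32 ± 0.16, with 41.75 to 66.65 CPM in irradiated and 38.10 to 50.61 CPM in control tumors. Mavs stood at 8.93 to 9.90 CPM in irradiated and 9.66 to 10.54 CPM in control tumors, with a log2 fold change of -0.16 ± 0.11 (edgeR, adjusted p = 0.824). At an unadjusted p under 0.05 in edgeR stood 2 of the 6, Dhx58 and Adar, where 2.64% of all genes were higher at that level.

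In MPNST-like cells 1 control tumor stood high and 1 irradiated tumor low for most members, so the groups overlapped. Rigi stood at 41.17, 69.89, 63.35 and 93.61 CPM in irradiated 1 to 4 and at 64.47, 39.98 and 38.77 CPM in control 1 to 3. Ifih1 stood at 20.27, 68.31, 49.58 and 73.85 CPM in irradiated and at 62.95, 14.46 and 16.99 CPM in control tumors. For both genes control 1 sat among irradiated 2, 3 and 4, and irradiated 1 sat near control 2 and 3. The log2 fold change was 0.43 ± 0.24 for Rigi and 0.72 ± 0.58 for Ifih1 (edgeR, adjusted p = 1.0 for both), and without control 1 that of Ifih1 became 1.59 and without control 2 0.38.

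The other members in MPNST-like cells showed the same arrangement, Mavs apart. Dhx58 stood at 3.74, 9.13, 5.00 and 10.55 CPM in irradiated and 6.95, 2.52 and 3.52 CPM in control tumors, with a log2 fold change of 0.65 ± 0.42. Eif2ak2 stood at 39.17, 54.28, 53.24 and 76.07 CPM in irradiated and 51.58, 37.96 and 34.21 CPM in control tumors (log2 fold change 0.37 ± 0.19). Adar stood at 25.61, 35.39, 37.59 and 55.43 CPM in irradiated and 35.88, 25.64 and 25.45 CPM in control tumors (log2 fold change 0.34 ± 0.21). Mavs stood at 7.90 to 9.76 CPM in irradiated and 6.40 to 9.42 CPM in control tumors, with a log2 fold change of 0.06 ± 0.13, which was -0.03 without control 3. The adjusted p was 1.0 in edgeR for each of these, and 0 of the 6 stood at an unadjusted p under 0.05, where 0.4% of all genes were higher at that level.

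**Figure D3:**
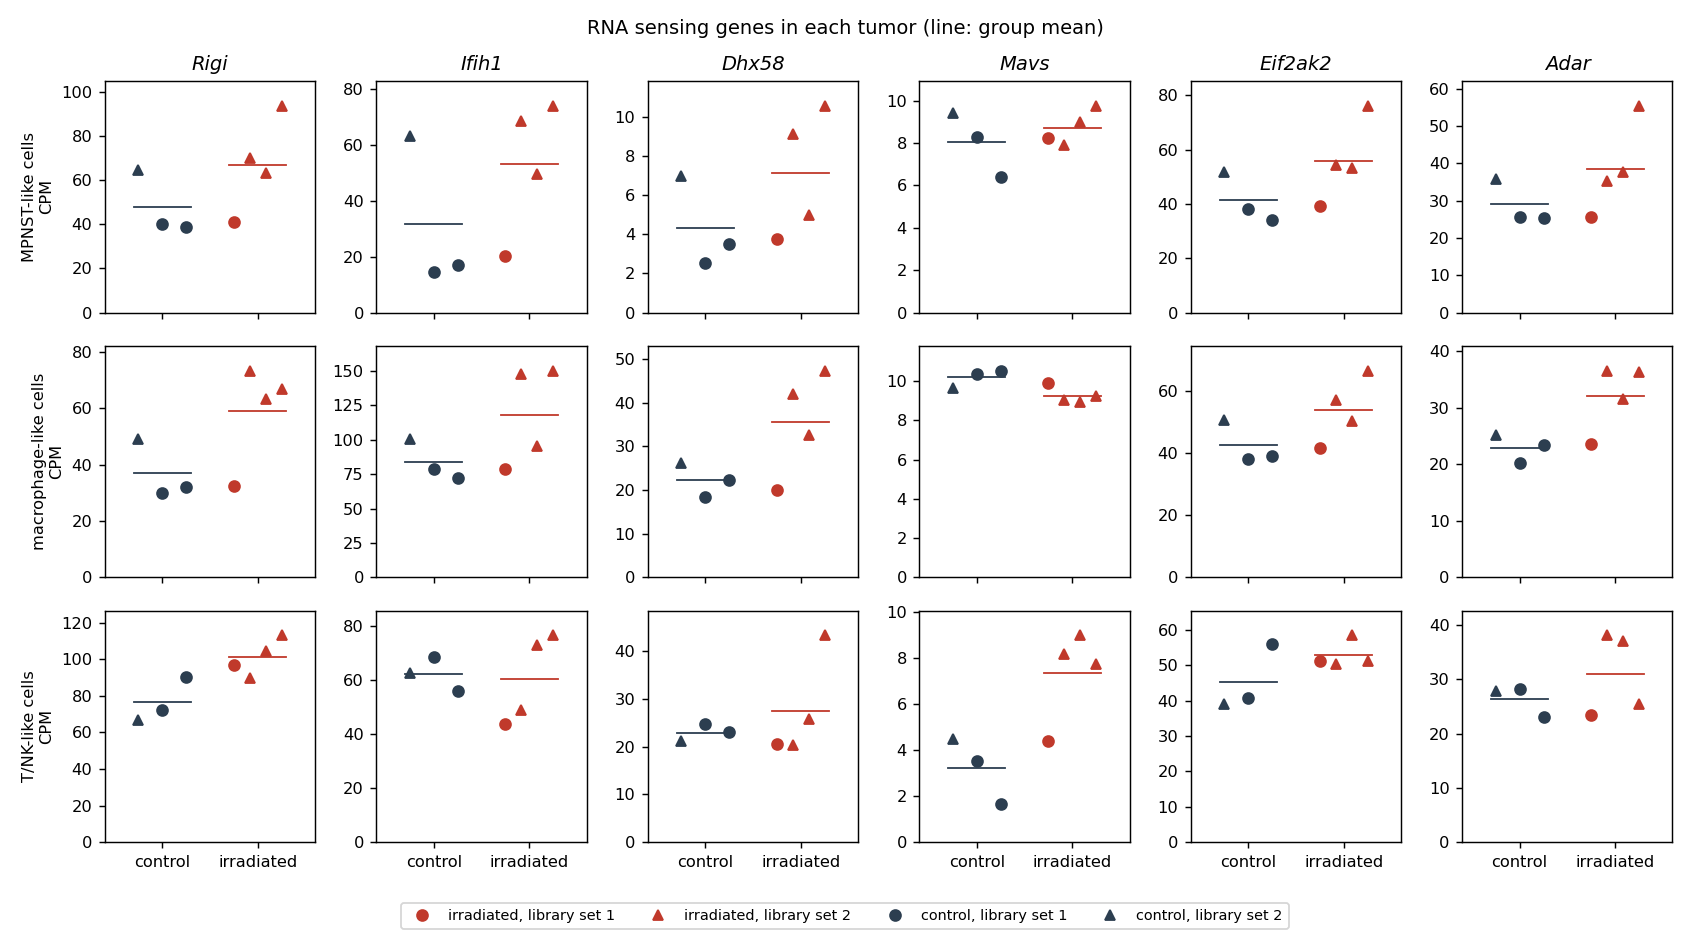
Level of each RNA sensing gene in CPM (vertical axes) in each control (dark) and irradiated (red) tumor, for MPNST-like, macrophage-like and T/NK-like cells; circles are library set 1, triangles set 2, and lines are group means. In MPNST-like cells control 1 (dark triangle, Ifih1 62.95 CPM) sits with the irradiated triangles and irradiated 1 (red circle, Ifih1 20.27 CPM) with the dark circles.

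T/NK-like cells did not follow that arrangement. Rigi stood at 96.73, 89.87, 104.45 and 113.09 CPM in irradiated 1 to 4 and at 67.07, 72.34 and 90.40 CPM in control 1 to 3. All irradiated tumors but irradiated 2 exceeded every control. The log2 fold change was 0.36 ± 0.18 (edgeR, adjusted p = 0.88), and the exact permutation test gave p = 0.0857. Ifih1 stood at 43.97, 49.02, 73.00 and 76.68 CPM in irradiated and at 62.60, 68.81 and 55.88 CPM in control tumors, a log2 fold change of -0.07 ± 0.22 that turned to 0.08 with cell clusters in place of gates.

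The remaining members in T/NK-like cells varied within the groups. Dhx58 had 20.42 to 43.38 CPM in irradiated and 21.24 to 24.70 CPM in control tumors, with a log2 fold change of 0.28 ± 0.31 that fell to -0.08 without irradiated 4. Eif2ak2 (0.18 ± 0.21) and Adar (0.17 ± 0.27) had adjusted p of 0.967 and 0.976 in edgeR. Mavs did not pass the filter on low counts in T/NK-like cells, so 5 of 6 members were tested there, of which 0 stood at an unadjusted p under 0.05 (2.42% of all genes were higher at that level). Its levels were 4.40, 8.17, 8.98 and 7.75 CPM in irradiated and 4.47, 3.53 and 1.64 CPM in control tumors, from 34 UMIs in all.

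The library sets moved with these values in tumor and macrophage-like cells. In MPNST-like cells, the mean log2 CPM of set 2 exceeded that of set 1 by 1.75 for Ifih1, 1.11 for Dhx58 and 0.72 for Rigi, where 90% of all genes lay between -0.62 and 0.67. In macrophage-like cells the gap was 0.94 for Rigi and 0.78 for Dhx58, where 90% of genes lay between -0.62 and 0.70, and 0.61 for Ifih1. In T/NK-like cells no member left that range, with gaps from -0.03 for Eif2ak2 to 0.28 for Adar. Of the 4 irradiated tumors 3 were in set 2, and of the 3 control tumors 1.

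Within the sets, the differences between groups were smaller than over all tumors for the 3 helicases in MPNST-like cells, and in macrophage-like cells for Rigi and Ifih1 but not for Dhx58 in set 2. In MPNST-like cells, irradiated 2 to 4 minus control 1 was 0.24 for Rigi, 0.03 for Ifih1 and 0.20 for Dhx58 on the log2 CPM scale, and irradiated 1 minus control 2 and 3 was 0.00, 0.31 and 0.27, beside 0.41, 0.86 and 0.66 over all tumors. In macrophage-like cells the same differences were 0.47, 0.36 and 0.62 in set 2 and 0.04, 0.04 and -0.04 in set 1, beside 0.61, 0.42 and 0.58 over all tumors. In T/NK-like cells they were 0.53 for Rigi, -0.003 for Ifih1 and 0.33 for Dhx58 in set 2. In set 1 of that class they were 0.23, -0.49 and -0.21, beside 0.34, -0.12 and 0.13 over all tumors. With the set as a term in edgeR, the log2 fold change in macrophage-like cells was 0.28 ± 0.12 for Rigi, 0.23 ± 0.20 for Ifih1, 0.34 ± 0.21 for Dhx58 and 0.30 ± 0.13 for Adar, and in MPNST-like cells 0.14 ± 0.15 for Rigi, 0.17 ± 0.17 for Ifih1 and 0.25 ± 0.29 for Dhx58, all with adjusted p = 1.0. What separates the sets was not tested. In T/NK-like cells the fold change of Rigi was 0.41 ± 0.20 with that term.

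**Figure D4:**
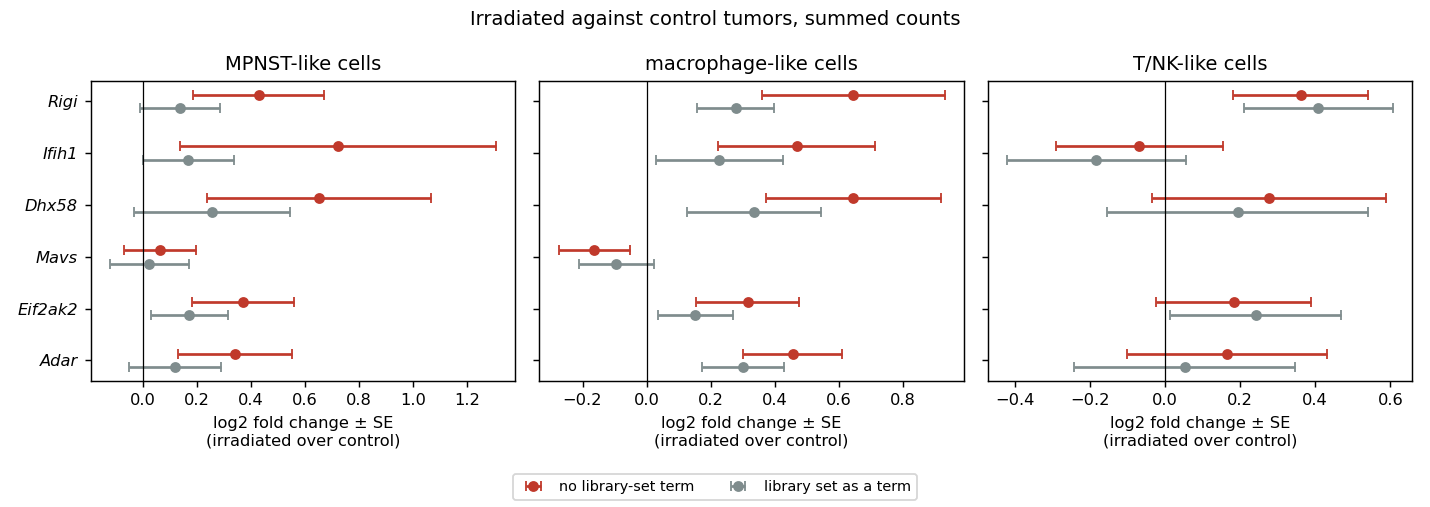
Log2 fold change ± SE of irradiated over control tumors (horizontal axis) for each RNA sensing gene (vertical axis) in the 3 classes, from edgeR without (red) and with (grey) the library set as a term; Mavs was not tested in T/NK-like cells. The grey points of the helicases in MPNST-like and macrophage-like cells lie nearer to 0 than the red ones, as for MPNST-like Ifih1 with 0.17 against 0.72.

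The size of the irradiation difference was not distinguishable between tumor cells and macrophages. In the edgeR test of the interaction, 0 of 16991 genes were called (0% in either direction; 981 at an unadjusted p under 0.05), and DESeq2 called 25, with none of the 6 genes among them in either test. The log2 difference of differences was largest for Ifih1, at -0.47 ± 0.38 (macrophage-like minus MPNST-like, adjusted p = 0.999), and became -0.94 without control 1 and -0.12 without control 2. For Rigi it was 0.18 ± 0.16. In counts simulated in the same way, with the dispersion trend, this test recovered 32.5% of 200 genes given a log2 difference of 1.

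Across single MPNST-like and macrophage-like cells, all members but Mavs were higher where the interferon-induced reference genes were. Each cell with at least 2000 UMIs was thinned to 2000 and placed by its UMIs from the 26 reference genes, none of which is a member. The CPM of each member was computed over the cells of a bin. Shallower cells were left out (848 MPNST-like, 1316 macrophage-like and 316 T/NK-like), unevenly between tumors. Among macrophage-like cells, control 2 lost 540 and irradiated 4 lost 94. In MPNST-like cells, Ifih1 stood at 8.29 CPM in 7234 cells with 0 reference UMIs, at 18.8 CPM in 5363 cells with 1 to 2 and at 179 CPM in 2798 cells with 3 or more. Dhx58 stood at 1.38, 1.96 and 25.2 CPM in the same bins, Rigi at 39.2, 48.1 and 131 CPM, Eif2ak2 at 29.6, 39.7 and 97.4 CPM and Adar at 23.9, 32.8 and 57.7 CPM. Each of these was higher in the top bin than in the bottom bin in 7 of 7 tumors. Mavs stood at 8.78, 9.32 and 11.8 CPM, higher in the top bin in 5 of 7.

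Macrophage-like cells gave the same order from lower base levels of Rigi. Rigi stood at 12.9 CPM in 813 cells without a reference UMI, at 16.5 CPM in 2577 cells with 1 to 2 and at 63.0 CPM in 7226 cells with 3 or more. Ifih1 stood at 34.4, 42.9 and 135 CPM, Dhx58 at 7.38, 10.1 and 36.7 CPM, Eif2ak2 at 24.0, 27.4 and 58.8 CPM and Adar at 15.4, 17.7 and 33.1 CPM, each higher in the top bin in 7 of 7 tumors. Mavs stood at 11.1, 9.9 and 8.79 CPM, higher in the top bin in 3 of 7. Cells of 1 tumor are not replicates and the bottom bin held 21 UMIs of Rigi in all 7 tumors, so these values are a description with no test. The bottom bin of T/NK-like cells held 70 cells and at most 6 UMIs of a member. Ifih1 and Eif2ak2 were higher in the top bin in 7 of 7 tumors, Rigi and Dhx58 in 6, Mavs in 5 and Adar in 3, with Adar at 42.9, 11.4 and 31.3 CPM over the bins.

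**Figure D5:**
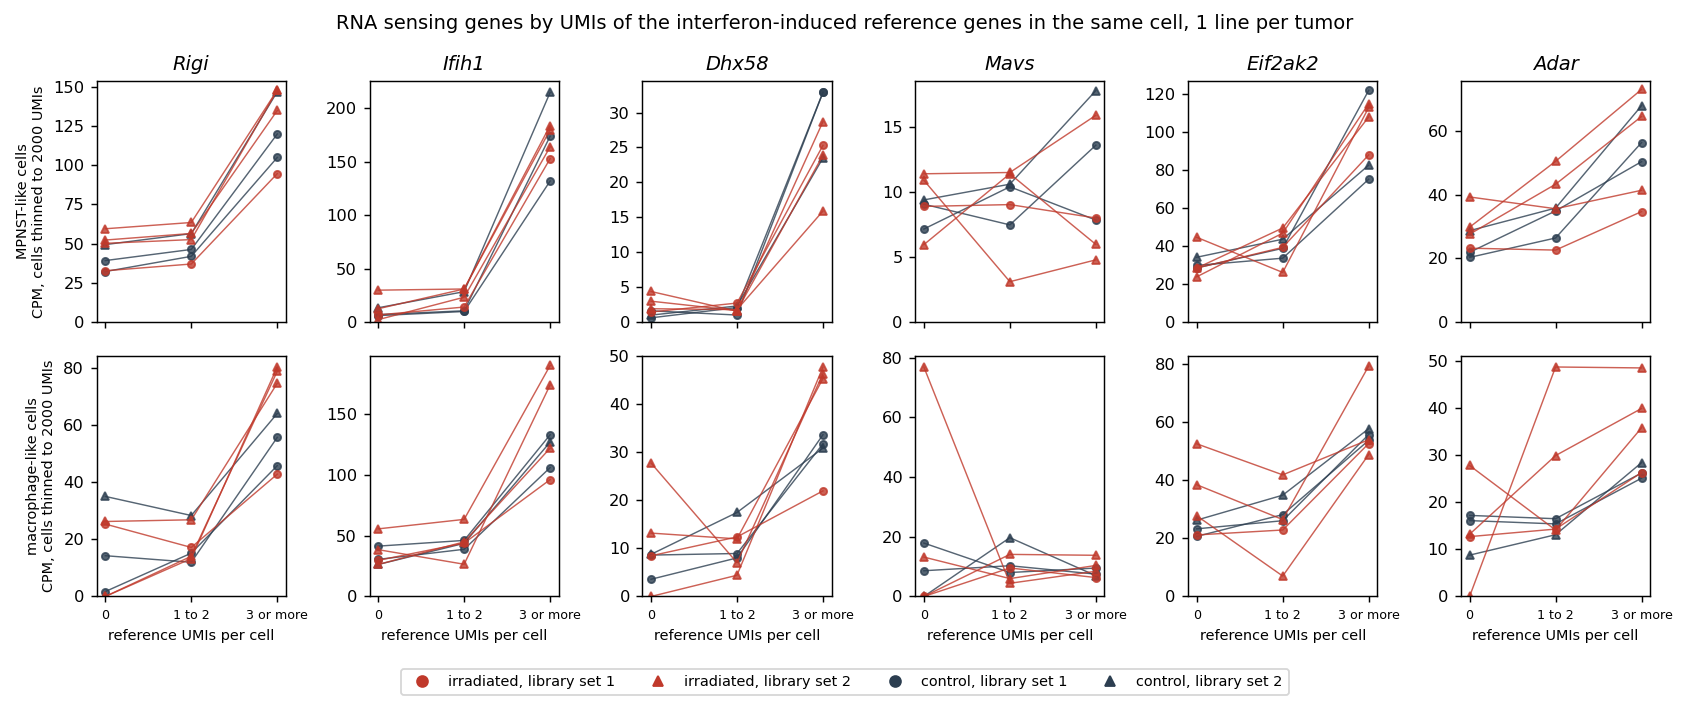
CPM of each RNA sensing gene (vertical axes, cells thinned to 2000 UMIs) in MPNST-like and macrophage-like cells with 0, 1 to 2, and 3 or more UMIs of the 26 interferon-induced reference genes (horizontal axes), with 1 line per tumor, colors for the group and symbols for the library set. In MPNST-like cells all 7 lines of Ifih1 climb to 132 to 215 CPM in the top bin, whereas those of Mavs cross; the bottom bin of macrophage-like cells is small (813 cells in all) and its single values are noisy.

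Within the top bin, both groups overlapped for the members, but in macrophage-like cells irradiated 2 to 4 stood above every control for some. MPNST-like Ifih1 lay between 153 and 184 CPM in irradiated and between 132 and 215 CPM in control tumors, and Rigi between 94.7 and 148 CPM and between 105 and 147 CPM. Top-bin macrophage-like Rigi stood at 42.9, 79.0, 74.8 and 80.5 CPM in irradiated 1 to 4 and at 64.2, 45.9 and 55.8 CPM in control 1 to 3. Dhx58 stood at 22.0, 46.4, 45.4 and 47.8 CPM against 30.9, 31.8 and 33.7 CPM, and Adar at 26.3, 35.8, 39.9 and 48.5 CPM against 28.4, 26.2 and 25.1 CPM. For these 3 genes irradiated 2, 3 and 4 exceeded all controls within the bin, whereas Ifih1 did so in irradiated 2 and 4. The share of the thinned cells in the top bin also differed between tumors. In MPNST-like cells it was 11.6%, 36.3%, 27.3% and 41.4% in irradiated 1 to 4 and 27.2%, 8.22% and 10.8% in control 1 to 3, the arrangement seen for the members. In macrophage-like cells it was 61.5%, 90.0%, 79.9% and 91.5% in irradiated and 77.8%, 51.2% and 53.0% in control tumors.

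Members also moved together across the 21 sums of 7 tumors and 3 classes. After log2 CPM was centered within each class, Rigi and Eif2ak2 had a Pearson r of 0.92, Ifih1 and Dhx58 0.88, Rigi and Dhx58 0.88 and Rigi and Adar 0.79. Mavs had r between 0.15 and 0.39 with the other 5. These are descriptions over points that share tumors, library sets and depth. Of 6194 genes with a mean of at least 10 CPM in each class, the patterns nearest to Rigi were those of Irgm1 (r = 0.95), Trim12c (0.93) and Ifi47 (0.93). The nearest to Ifih1 were Slfn8 (0.96), Oasl1 (0.95) and Lars2 (0.94), to Dhx58 Trim30a (0.94), Isg15 (0.94) and Oasl2 (0.93), to Eif2ak2 Trim12c (0.94), Irgm1 (0.93) and Nlrc5 (0.93), and to Adar Pml (0.93), Ifi44 (0.90) and Mvp (0.90). Irgm1 and Ifi47 are interferon-inducible GTPase genes, Isg15 a ubiquitin-like modifier and Pml the organizer of nuclear bodies. The nearest to Mavs were Dusp22 (0.93), Ndufs1 (0.89), a subunit of respiratory complex I, and Arel1 (0.88), and 21 sums with few Mavs UMIs in T/NK-like cells make these the least certain.

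Other genes of the pathway were read from the same fits, and none of them was called in any of the 3 classes. Among 10 ubiquitin ligases and other regulators of the helicases, 0 of 9 tested in macrophage-like, 0 of 10 in MPNST-like and 0 of 7 in T/NK-like cells passed, with median log2 fold changes of 0.05, 0.04 and 0.10. Trim25, the ligase known for activating RIG-I, had 41.6 ± 15.2 CPM (SD, n = 4) in irradiated and 27.3 ± 7.36 CPM (n = 3) in control MPNST-like cells, a log2 fold change of 0.54 ± 0.26 (edgeR, adjusted p = 1.0). Zc3hav1, the antiviral protein ZAP, had 143, 171, 143 and 187 CPM in irradiated and 141, 127 and 135 CPM in control macrophage-like cells, values that did not overlap (2.47% of all genes lay higher in this way), with a log2 fold change of 0.24 ± 0.11 (edgeR, adjusted p = 0.818).

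Of 15 genes of MAVS signaling, 0 of 15, 0 of 15 and 0 of 14 passed in macrophage-like, MPNST-like and T/NK-like cells, with medians of 0.14, 0.12 and 0.10. Irf7, the interferon-induced factor that amplifies interferon transcription, had log2 fold changes of 0.92 ± 0.51, 0.98 ± 0.67 and 0.63 ± 0.31 in these classes (edgeR, adjusted p = 0.818, 1.0 and 0.88). In macrophage-like cells, Ikbke, a kinase of IRF3, had 13.7 ± 4.09 CPM (SD, n = 4) in irradiated and 8.05 ± 2.65 CPM (n = 3) in control tumors, and Ripk1, a kinase of cell death and NF-kB signaling, 57.9 ± 3.63 and 48.8 ± 3.76 CPM. Neither overlapped between groups, where 2.47% of all genes lay higher without overlap, and both had an adjusted p of 0.818 in edgeR. Nfkb1, a subunit of NF-kB, had a log2 fold change of -0.45 ± 0.18 in T/NK-like cells (edgeR, adjusted p = 0.841) and Tradd, an adaptor of the MAVS complex, -0.59 ± 0.42 (adjusted p = 0.925).

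Of 10 PKR partners and stress response genes, 0 of 9, 0 of 10 and 0 of 5 passed, with medians of 0.01, -0.12 and -0.12. Atf4, the transcription factor whose translation rises when eIF2 alpha is phosphorylated, had 62.1 ± 9.51 CPM (SD, n = 4) in irradiated and 63.0 ± 9.01 CPM (n = 3) in control macrophage-like cells. Of 9 endosomal RNA sensor genes, 0 of 9, 0 of 7 and 0 of 3 passed, and Tlr3, the endosomal receptor for double-stranded RNA, had 14.5 ± 3.16 CPM (n = 4) in irradiated and 10.5 ± 3.40 CPM (n = 3) in control macrophage-like cells. Of 10 genes for double-stranded RNA binding and editing, 0 of 9, 0 of 9 and 0 of 7 passed. In that list Zbp1, a sensor of Z-form nucleic acid that ADAR1 holds in check, had log2 fold changes of 1.01 ± 0.46 in macrophage-like, 1.15 ± 0.68 in MPNST-like and 0.66 ± 0.26 in T/NK-like cells (edgeR, adjusted p = 0.818, 1.0 and 0.832).

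Transcripts of the type I interferons on the list were scarce in macrophage-like, MPNST-like and T/NK-like cells. Dendritic-like and other cells were not read for them. Ifnb1 gave 64 UMIs of 97699221 in macrophage-like, 38 of 433500325 in MPNST-like and 1 of 5667839 in T/NK-like cells. The 3 alpha interferon genes of the list (Ifna2, Ifna4 and Ifna5) gave 0 UMIs in each class, which allows up to 3. Ifng, the type II interferon of T and NK cells, gave 747 UMIs in T/NK-like cells, at 131 ± 93.9 CPM (SD, n = 4) in irradiated and 136 ± 59.9 CPM (n = 3) in control tumors. The 26 reference genes had 0 calls in each class, with a log2 fold change above 0 for 26 of 26 in macrophage-like, 26 of 26 in MPNST-like and 21 of 26 in T/NK-like cells, where 49.1%, 50.6% and 50% of all genes lay above 0. Their medians were 0.90, 0.83 and 0.24, beside medians over the members of 0.46 (6 tested), 0.40 (6 tested) and 0.18 (5 tested) and medians over all genes of 0.00 in each class.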

How the data were processed

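UMI counts per gene and cell were deposited by the authors; their headers name Cell Ranger 8.0.0, the submitters' notes name mm10 and Seurat 4.4, and the paper an earlier Cell Ranger. The files state no build, so gene coordinates are not given. Cells over 3 median absolute deviations from the median of their own library were removed. Classes are gates on mean marker expression, with thresholds set after the distributions were seen; Leiden clusters (scanpy 1.11.5) were an alternative. Scrublet marked 714 doublets (2.08%), removed only as an alternative.

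Sums over each class of a tumor, from 20 cells up, were tested with edgeR 4.0.16 (filterByExpr, TMM, robust quasi-likelihood, threshold 0.05), with DESeq2 1.42.0 as an alternative. All 39537 cells, equal cells, other scaling, library set, replicate block and leaving out each tumor were also tried; library totals were added after seeing the data. Fits were tested on simulated data. Named pathway genes are the up to 3 of each list and class with the largest absolute fold change at a mean of at least 10 CPM, of which examples are given; nearest patterns are the 3 largest Pearson r. Members and lists were chosen with earlier results of these data known. Exons of Dhx58, Eif2ak2 and Adar overlap genes on the opposite strand in the GENCODE annotation.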

Additional observations from a re-analysis of the deposited data

Results flagged for a closer look

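Among 30 groups of 4 irradiated tumors examined for a member in a class, 1 held a tumor far from the others. Eif2ak2 in T/NK-like cells stood at 58.4 CPM in irradiated 3 against 50.38 to 51.3 CPM in the other irradiated tumors. Chance alone flags about 1 in 20 such groups.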

How the results depend on the processing

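No RNA sensing gene was called between irradiated and control tumors in any class under any alternative run. The count of all genes called in T/NK-like cells was 80 with no filter on low counts, 1 each with DESeq2, equal cells and the library set as a term, and 0 to 2 without single tumors, beside 0. In macrophage-like cells DESeq2 called 11 genes. For the difference between macrophage-like and MPNST-like cells, the count was 9 with no filter, 25 with DESeq2 and 0 to 13 without single tumors, the highest without irradiated 1. Of 6 RNA sensing genes, 3 were called in T/NK-like against macrophage-like cells with library totals and 3 with no tumor block, beside 6, and 4 in endothelial-like against MPNST-like cells with library totals, beside 2. With RLE size factors or DESeq2, 1 was called higher and 3 lower in T/NK-like against macrophage-like cells. In T/NK-like against MPNST-like cells, 2 to 5 were called without single tumors, the highest without irradiated 2, beside 3.

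In macrophage-like against MPNST-like cells, 6 of 6 were called higher, 4 with RLE size factors, DESeq2, no filter or no tumor block, and 4 to 6 without single tumors; with library totals 2 were called higher, and Rigi (-0.27) and Adar (-0.27) were called lower.

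Other signs turned in differences that were not called under that alternative. With library totals these were Eif2ak2 (0.011) in T/NK-like against MPNST-like cells, Eif2ak2 (0.004) and Adar (0.03) in T/NK-like against macrophage-like cells and Mavs (0.04) in endothelial-like cells. Eif2ak2 in T/NK-like against MPNST-like cells also turned with DESeq2 (0.006), clusters (0.11) and no tumor block (0.013), and Mavs in endothelial-like cells with no tumor block (0.000182). Between irradiated and control tumors, Ifih1 in T/NK-like cells turned with clusters (0.075), equal cells (0.077) and without irradiated 1 (0.043), irradiated 2 (0.017) or control 2 (0.012; range without single tumors -0.215 to 0.043), Dhx58 in T/NK-like cells without irradiated 4 (-0.08; range to 0.392) and Mavs in MPNST-like cells without control 3 (-0.03). Dhx58 turned to 0.095 in the difference between classes without control 2, from -0.321 without control 1. The cause was not tested.

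Same-numbered tumors did not deviate together (correlations -0.442 to 0.116). These are deviations from the means of 3 control or 4 irradiated tumors that also differ in library set. They cannot settle whether the numbers pair the tumors. With the replicate block, 0 RNA sensing genes were called in each class, 1 gene of all was called in T/NK-like cells, and Dhx58 there became -0.09. Depth limits Mavs in T/NK-like cells (34 UMIs).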
